A study of Mus musculus with 6 samples.

Results

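The transgelins (Tagln, Tagln2 and Tagln3) and the calponins (Cnn1, Cnn2 and Cnn3) are small actin-binding proteins that carry a calponin homology domain. They were followed in total RNA of mouse embryonic stem cells (mESC) with both or only 1 intact allele of Srrm2, the gene of a large scaffold protein of the speckles where splicing factors gather. The 6 genes were chosen by name from the 42450 genes listed, with their difference between the genotypes already known from these same libraries. The values that contrast the genotypes in the members are therefore a description and carry no test. All 6 were among the 18905 genes past the filter on low counts, and the lowest count of any member in any library was 37.

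The wild-type group (WT) was the male line E14tg2a.4, with 3 replicates. The other group (Srrm2+/-) was its heterozygous gene-trap derivative CG0630, also male and also with 3 replicates, in which a trap cassette truncates 1 allele of Srrm2. Both lines were grown on gelatin with leukemia inhibitory factor (LIF) and moved to serum-free medium with LIF before harvest. Srrm2+/- is a single trapped clone, and per the study's methods the WT cells were at higher passage numbers, so genotype, clone and passage cannot be told apart. The study names the Y-linked genes Ddx3y and Eif2s3y among its top differentially expressed genes between the lines. Whether the lines differ in Y chromosome content was not tested. Each replicate came from a separately frozen batch of cells. Library totals lay between 54151532 and 69933465 estimated counts, and no library stood apart from its group (Pearson r of log2 CPM across genes 0.985 to 0.989 within groups and 0.971 to 0.975 between them). Srrm2 itself was between 91.2 and 98.3 in normalized counts-per-million units (CPM) in the WT libraries and between 56.2 and 62.3 CPM in the Srrm2+/- libraries.

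Transgelin, also called SM22 alpha, and calponin 1 are classical markers of differentiated smooth muscle, where they lie along actin filaments. Their genes, like those of smooth muscle actin and caldesmon, are textbook targets of the serum response factor (SRF) and its myocardin-related cofactors, which bind a sequence called the CArG box. Tagln2 and the calponins Cnn2 and Cnn3 are also made outside muscle, and Tagln3 is best known from neurons. Calponins have a C-terminal region with repeats that the transgelins hold in 1 copy, which shows in the coding lengths. Without the stop codon the longest annotated coding sequences were 603 bases for Tagln and 597 for both Tagln2 and Tagln3, against 891 for Cnn1, 915 for Cnn2 and 990 for Cnn3.

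The promoter regions of the calponin genes are shown because the fold between the genotypes ran from 1.20 to 8.83 among these 3 paralogs. Each sequence runs 5′ to 3′ and ends before both the RefSeq and the GENCODE start of the gene, and capitals mark a CArG box.
Cnn1 (GRCm38.p6, chr9:22099003-22099215, plus strand): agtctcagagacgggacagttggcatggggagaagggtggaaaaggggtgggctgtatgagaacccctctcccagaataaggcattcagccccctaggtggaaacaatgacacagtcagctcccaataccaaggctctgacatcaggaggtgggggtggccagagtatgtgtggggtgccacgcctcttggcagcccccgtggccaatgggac
Cnn2 (GRCm38.p6, chr10:79988350-79988583, plus strand): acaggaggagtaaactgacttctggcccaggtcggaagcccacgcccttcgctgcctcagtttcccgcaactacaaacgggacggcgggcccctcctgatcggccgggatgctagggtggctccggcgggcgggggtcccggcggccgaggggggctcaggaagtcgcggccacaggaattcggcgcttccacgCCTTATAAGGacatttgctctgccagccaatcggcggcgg
Cnn3 (GRCm38.p6, chr3:121426291-121426496, plus strand): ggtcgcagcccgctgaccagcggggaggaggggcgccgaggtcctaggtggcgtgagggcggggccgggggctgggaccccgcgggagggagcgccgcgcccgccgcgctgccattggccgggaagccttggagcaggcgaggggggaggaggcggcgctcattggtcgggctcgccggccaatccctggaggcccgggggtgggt

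The RefSeq windows searched run from 250 bases before to 50 bases after each start, and 5 of the 6 members had one (Tagln did not). The Cnn2 window held the CArG box CCTTATAAGG (CC, 6 bases of A or T, GG), at chr10:79988544-79988553, whose first base lies at -56 when the base before the start is counted as -1. No CArG box lay in the windows of Cnn1, Cnn3, Tagln2 or Tagln3, nor did a form with a G or C at 1 of the 6 middle bases in any of the 5. Of all 32851 windows, 1.63% held the CArG box and 8.5% the relaxed form. The TEAD motif CATTCC, on either strand, occurred only in the Tagln2 window among the members, at -118 and -80, and in 14.7% of all windows. The SP1 box GGGCGG, on either strand, occurred in the windows of Cnn2, Cnn3 and Tagln2, and in 35.7% of all windows. These matches are letters in a window and not measured binding sites, and a window without a match says nothing about sites elsewhere at the gene.

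Among the transgelins, the smooth muscle form showed the largest difference. Tagln (ENSMUSG00000032085, chromosome 9, 45929619 to 45936058, minus strand, GRCm38) was at 4.61, 2.37 and 3.77 CPM in the WT libraries and at 70.6, 72.4 and 62.1 CPM in the Srrm2+/- libraries. The groups were far apart, and the lowest Srrm2+/- library was 13.5-fold above the highest WT library. The fitted difference was 19.1-fold, a log2 fold change of 4.26 (SE 0.18), which ranked 20 among the 18905 tested genes. WT replicate 2 had the lowest level, with 137 counts against 256 and 202 in the other WT libraries.

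Tagln2 (chromosome 1, 172500047 to 172507380, plus strand), the broadly expressed form, was at 62.8, 65.3 and 61.1 CPM in WT and at 103, 86.2 and 90.3 CPM in Srrm2+/-. All Srrm2+/- libraries lay above all WT libraries, with a fold of 1.48 (log2 fold change 0.56, SE 0.07). Tagln3 (chromosome 16, 45711230 to 45724608, minus strand), the neuronal form, was at 5.48, 5.50 and 5.0 CPM in WT and at 4.67, 4.55 and 4.20 CPM in Srrm2+/-. Its libraries did not overlap either, but the Srrm2+/- libraries were the lower ones, with a log2 fold change of -0.25 (SE 0.10).

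The calponins spanned a similar range. Cnn1 (ENSMUSG00000001349, chromosome 9, 22099216 to 22109630, plus strand), the smooth muscle calponin, was at 0.811, 0.640 and 0.765 CPM in WT, from 45, 37 and 41 counts. It was at 7.28, 6.35 and 5.96 CPM in Srrm2+/-, from 504, 438 and 368 counts. The 2 groups were well separated, with a fold of 8.83 and a log2 fold change of 3.14 (SE 0.15). Cnn1 nevertheless had the lowest level of the 6 genes in both groups, per kilobase of the longest annotated transcript.

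Cnn2 (ENSMUSG00000004665, chromosome 10, 79988584 to 79996062, plus strand), found in smooth muscle and in many other cells, was at 35.3, 29.8 and 35.0 CPM in WT and at 148, 135 and 131 CPM in Srrm2+/-. Every Srrm2+/- library was at least 3.71-fold above every WT library, and the fitted fold was 4.14 (log2 fold change 2.05, SE 0.07). Cnn3 (chromosome 3, 121426497 to 121458207, plus strand), the acidic calponin, was at 273, 283 and 287 CPM in WT and at 334, 350 and 329 CPM in Srrm2+/-. Its groups did not overlap, but the difference was small, with a fold of 1.20 and a log2 fold change of 0.27 (SE 0.04).

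**Figure D1:**
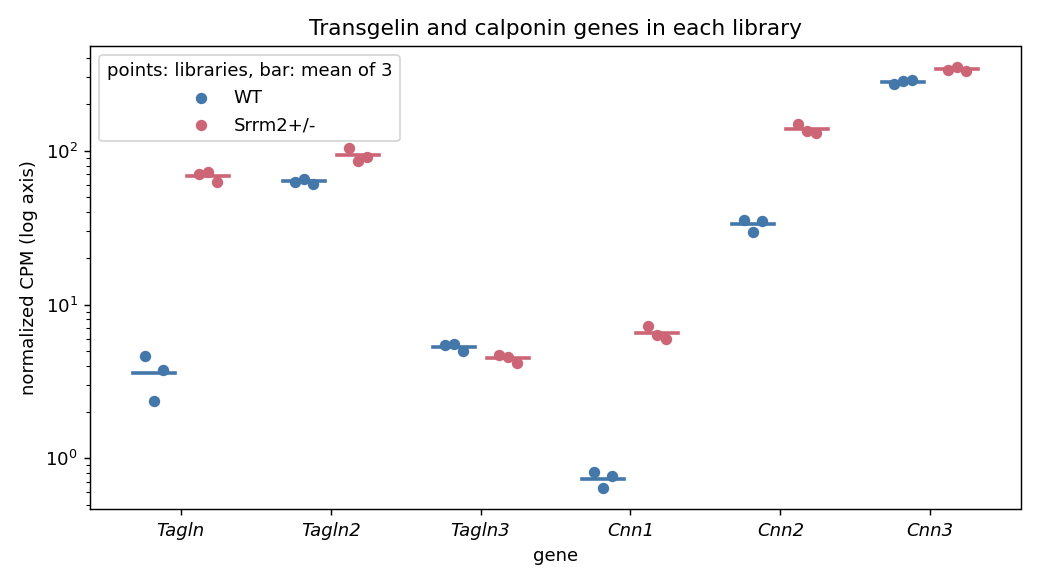
Normalized CPM on a log axis for each of the 6 genes, with 1 point per library (blue WT, red Srrm2+/-) and a bar at the mean of 3. The points of Tagln, Cnn1 and Cnn2 are separated by wide gaps, those of Tagln2 and Cnn3 by narrow ones, and Tagln3 alone is lower in Srrm2+/-.

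Of the 6 members, 5 passed an edgeR adjusted p under 0.05, all of them higher in Srrm2+/-, while 25.3% of the 18905 tested genes were called (13.6% higher and 11.7% lower). Tagln3 was not called. The libraries of the 2 groups did not overlap in 6 of 6 members (5 of them higher in Srrm2+/-) and in 41.4% of tested genes (21.4% higher). Because the members were chosen on this contrast, nothing is read from either count. In these bulk libraries, a change in the number of cells that express a gene and a change in RNA per cell cannot be told apart.

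Levels of different genes were compared per kilobase of the longest annotated transcript. Which transcript of each gene was expressed was not examined, so genes of close levels could change order with another length. In WT, Cnn3 led with 127 ± 3.35 CPM per kilobase (SD, n = 3), followed by Tagln2 (39.8 ± 1.34), Cnn2 (13.6 ± 1.26), Tagln3 (4.30 ± 0.226), Tagln (2.25 ± 0.710) and Cnn1 (0.310 ± 0.0372). No 2 neighbours in this order overlapped in their libraries. In Srrm2+/- the order was Cnn3 (153 ± 4.80), Tagln2 (58.8 ± 5.67), Cnn2 (56.1 ± 3.66), Tagln (42.9 ± 3.46), Tagln3 (3.61 ± 0.198) and Cnn1 (2.74 ± 0.285). Tagln2 and Cnn2 overlapped there and did not differ beyond their spread, and Tagln stood above Tagln3.

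The sum of the 6 genes was 187 ± 2.17 CPM per kilobase for WT against 317 ± 12.0 for the mutant line (SD over 3 libraries), and its make-up differed. Cnn3 held 67.8 ± 1.02% of the sum in WT and 48.2 ± 1.84% in Srrm2+/-. Tagln held 1.20 ± 0.388% and 13.5 ± 0.716%, and Cnn2 held 7.25 ± 0.688% and 17.7 ± 0.622%, respectively. Within the transgelins, the level of Tagln per kilobase was 0.0568 ± 0.0189 of that of Tagln2 in WT and 0.733 ± 0.0894 of it in Srrm2+/-. Within the calponins, Cnn2 stood at 0.107 ± 0.0111 of Cnn3 in WT and at 0.368 ± 0.0274 in Srrm2+/-.

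**Figure D2:**
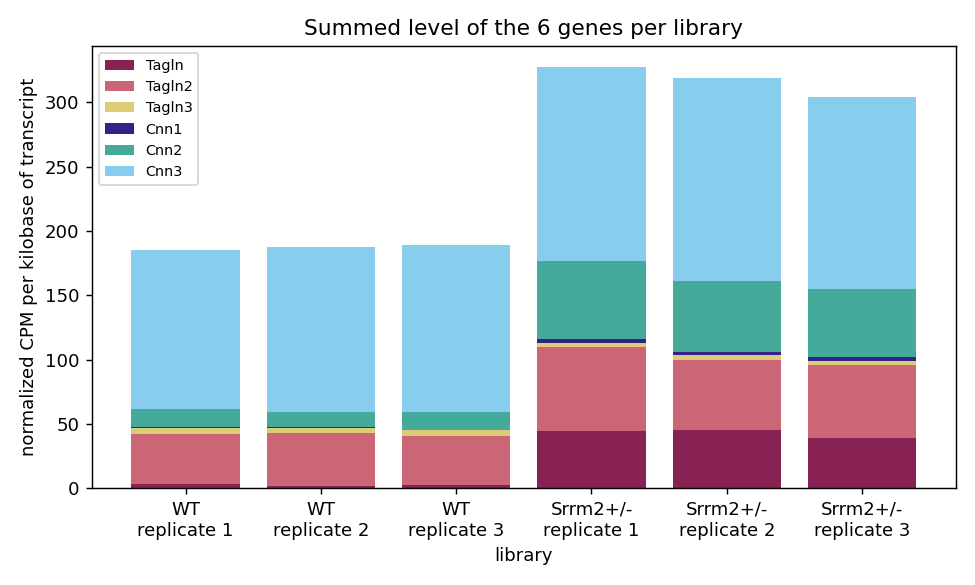
Stacked bars from 0 give the normalized CPM per kilobase of transcript of the 6 genes in each library. The 3 WT bars reach between 185 and 189 and the 3 Srrm2+/- bars between 304 and 327, with Tagln and Cnn2 as the parts that grew most in proportion to their WT size among the visible ones.

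Coding sequence identity was set beside the differences of the members. Over aligned coding bases, identity was 70.02% to 71.8% among the transgelins, 68.1% to 71.8% among the calponins and 64.8% to 71.4% between the 2 groups of proteins. Gaps were not counted and these ranges overlap, so the measure does not order the members by relatedness. The highest identity, 71.8%, was shared by the pair Tagln and Tagln3, with log2 fold changes of 4.26 and -0.25, and by the pair Cnn1 and Cnn3, with 3.14 and 0.27. No 31-base word of any member occurred in a transcript of another member, 31 bases being the default word length of Kallisto, so the members could be counted apart from each other.

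Some members share words with other genes. For Tagln, 62.2% of its words occur in annotated transcripts on the opposite strand, most of them (58.3% of all) in the antisense gene Gm48529, and 0% on the same strand. Gm48529 was not among the 10 counted genes within 100 kb of Tagln, so no level can be given for it. The 3′ end of Tagln also overlaps the end of Pcsk7, which averaged 3.04 ± 2.45 CPM over the WT libraries and 0.904 ± 0.801 CPM over the mutant ones (SD, n = 3). For Cnn3 the share was 32.0%, of which 17.6 percentage points were on the same strand. It was 1.19% for Tagln2, 1.18% for Cnn2 and 0% for Tagln3 and Cnn1. The strand setting of the counting was not given in the sources used here, so sense and antisense reads of Tagln cannot be told apart, and the part of shared reads in its value was not tested.

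The genes that act with the family on the actin filament were examined as a list of 22 genes for actins, tropomyosins, myosins and other contractile proteins. Like the lists that follow, it was chosen with earlier results of these data known. The shares called in these lists therefore describe these libraries and are no independent support. Of the 19 past the filter, 16 (84.2%) were called higher in Srrm2+/- by edgeR, against 13.6% of all tested genes. Called lower were 0 (0 also at an unadjusted p under 0.05 and with DESeq2 and limma voom), against 11.7% of all tested genes. The median log2 fold change was 0.90 against -0.00254 over all tested genes. The largest rises were in Acta1, the skeletal muscle actin (4.28, SE 0.27, edgeR adjusted p 1.14e-05), Acta2, the smooth muscle actin (4.15, SE 0.19, edgeR adjusted p 2.12e-06), and Myl9, a regulatory light chain of smooth and non-muscle myosin (3.58, SE 0.23, edgeR adjusted p 1.09e-05). Acta2 was at 3.42, 1.90 and 2.11 CPM in WT and at 38.3, 50.8 and 42.5 CPM in Srrm2+/-, a separation of the same order as that of Tagln. Acta1 was near the floor in WT, at 0.306, 0.138 and 0.336 CPM, and passed the filter through Srrm2+/- (5.92, 4.99 and 4.26 CPM). Myl9 was also low in WT, at 0.748 ± 0.281 CPM, against 8.95 ± 0.690 CPM in Srrm2+/- (SD, n = 3). Among members of the list above 100 CPM on average, Tpm1 (1.68), Actg1 (1.31), Tpm4 (0.91), Myh10 (0.90), Myh9 (0.64), Myl6 (0.48) and Actb (0.46) rose as well on the log2 scale. Tpm3 averaged 353 ± 5.29 CPM over the WT libraries and 384 ± 17.3 CPM over the mutant ones (SD, n = 3), which missed the threshold (difference 0.12 on the log2 scale, edgeR adjusted p 0.0723). Tpm3 passed it with DESeq2 (adjusted p 0.0366), with the filter at 1 CPM (edgeR adjusted p 0.0471) and without Srrm2+/- replicate 2 (edgeR adjusted p 0.0345). The 3 list genes below the filter were Myh11, Actg2 and Actc1. Their highest level in any group was 0.291 ± 0.196 CPM (SD, n = 3), for Actc1 in Srrm2+/-.

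Regulators of smooth muscle genes moved less uniformly. Of 15 tested, 5 (33.3%) were called higher and 1 (6.67%) lower, with a median log2 fold change of 0.06. Over all tested genes the shares were 13.6% higher and 11.7% lower. The higher genes were the ligand Tgfb2 (3.02, SE 0.15, edgeR adjusted p 2.90e-06), its receptor Tgfbr2 (1.87, SE 0.23), Srf (0.99, SE 0.06), the ETS-type SRF partner Elk3 (0.89, SE 0.13) and the TGF-beta mediator Smad3 (0.43, SE 0.10). Tgfb2 (0.612 ± 0.0413 and 4.96 ± 0.430 CPM) and Tgfbr2 (0.699 ± 0.224 and 2.55 ± 0.140 CPM) were low in WT (SD, n = 3 each, WT first). Srf was at 21.5, 22.0 and 20.3 CPM in WT and at 42.8, 39.5 and 44.1 CPM in Srrm2+/-. The SRF cofactors Mrtfa (2.12 ± 0.279 and 1.77 ± 0.0403 CPM) and Mrtfb (9.37 ± 0.0655 and 9.94 ± 0.783 CPM) did not pass the threshold, with edgeR adjusted p of 0.262 and 0.494 (SD, n = 3 each, WT first). Myocd, the cofactor typical of smooth and cardiac muscle, was at 0.133 ± 0.0555 and 0.280 ± 0.0750 CPM and did not pass it either (edgeR adjusted p 0.12). Klf4 was the gene called lower (log2 fold change -0.82, SE 0.08, edgeR adjusted p 0.000126). It encodes a factor known to repress smooth muscle genes, and the study reports its fall as that of a core pluripotency factor. A link between Klf4 and the members was not tested.

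Among other genes with a calponin homology domain, the actin-binding module shared with the 6 members, more were called higher than lower. Of 49 tested, 24 (49.0%) were called higher and 5 (10.2%) lower, with a median log2 fold change of 0.24. Over all tested genes the shares were 13.6% higher and 11.7% lower. The largest rises were in Limch1 (2.76, SE 0.20, edgeR adjusted p 2.49e-05), which links to non-muscle myosin, the muscle filamin Flnc (2.26, SE 0.07, edgeR adjusted p 1.70e-07) and Parva, a parvin of focal adhesions (1.94, SE 0.13, edgeR adjusted p 1.81e-05). Limch1 was low in WT, at 0.516 ± 0.0732 CPM, against 3.49 ± 0.629 CPM in Srrm2+/- (SD, n = 3). Among abundant members Flna (0.73), Actn4 (0.63), Actn1 (0.46), Iqgap1 (0.26) and Sptbn1 (0.19) rose on the log2 scale, while Macf1 (-0.05), Dst (-0.11) and Mapre1 (0.09) did not pass the threshold. Dst passed it without WT replicate 1 (edgeR adjusted p 0.0349). Sptbn1 lost its call when any of 4 single libraries was left out (largest edgeR adjusted p 0.0931, without Srrm2+/- replicate 3). The largest falls among called genes were in Mical1, an oxidase that disassembles actin filaments (-0.62, SE 0.05), and the smoothelin-like gene Smtnl2 (-0.53, SE 0.07).

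**Figure D3:**
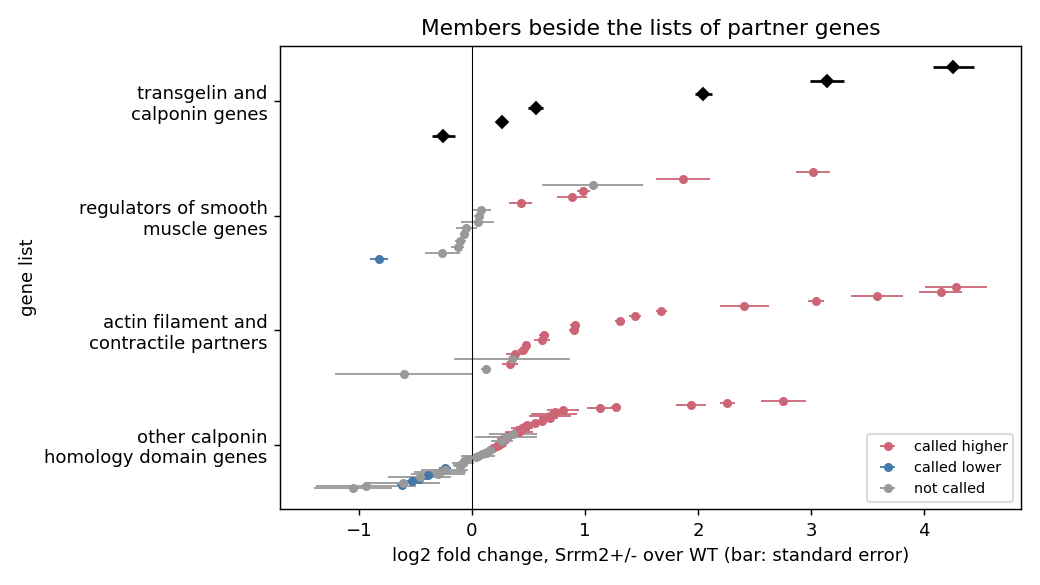
Log2 fold changes of Srrm2+/- over WT with standard errors, for the 6 members (black) and the tested genes of the 3 lists, coloured by their edgeR call. Tagln and Cnn1 lie at the upper end with Acta1, Acta2 and Myl9, and the calponin homology domain genes gather nearer to 0.

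The genes whose profile over the 6 libraries lay closest to a member were sought among 10913 protein-coding genes, by the root mean square difference of log2 CPM centred on each gene's mean. Closest to Tagln were Acta2 (difference 0.206), Anxa3 (0.244), an annexin that binds membranes, and Ccn1 (0.247), a matricellular protein. Closest to Cnn1 were the actin filament protein caldesmon, Cald1 (0.0876), Anxa2 (0.107) and Ccn2 (0.112). Closest to Cnn2 were Tinagl1 (0.0224), Podxl (0.0678) and Capn2 (0.0820). The measure is set mostly by the size of the difference between the groups, so it describes these libraries only.

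The surroundings of the 6 genes were compared to see whether neighbours within 100 kb moved too. Of 39 tested neighbours, 7 were called higher and 1 lower by edgeR, with a median log2 fold change of 0.00239. Over all tested genes 13.6% were called higher and 25.3% in either direction, so these counts lie near the background and are no result about the surroundings. Next to Tagln, Sidt2 (1799 bases away) rose by 0.56 (SE 0.07, edgeR adjusted p 0.000386), and the other 6 tested neighbours were not called. At Cnn1, 1 of 11 was called, which was Elof1 (0.28, SE 0.05, edgeR adjusted p 0.00563). At Cnn2, Arid3a (0.48, SE 0.06) and Wdr18 (0.17, SE 0.04) were called higher, and Abca7, 432 bases away, lower (-0.47, SE 0.09, edgeR adjusted p 0.00432). The call of Wdr18 was lost without WT replicate 3 (edgeR adjusted p 0.0534).

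Larger called changes lay beside Tagln2 and Tagln3, but not beside Cnn3, which also differed little. At Tagln2, Igsf9 (1169 bases away) rose by 1.27 (SE 0.10, edgeR adjusted p 4.29e-05) and Slamf9 by 1.09 (SE 0.22, edgeR adjusted p 0.00664), both above the 0.56 of Tagln2 itself. At Tagln3, Phldb2, which encodes a protein that anchors microtubules at the cell cortex, averaged 5.16 ± 0.187 CPM over the WT libraries and 32.0 ± 2.10 CPM over the mutant ones (SD, n = 3). It rose by 2.63 on the log2 scale (SE 0.07, edgeR adjusted p 1.32e-07). The tested neighbours of Cnn3, Slc44a3 and Alg14, missed the threshold (edgeR adjusted p 0.467 and 0.675).

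**Figure D4:**
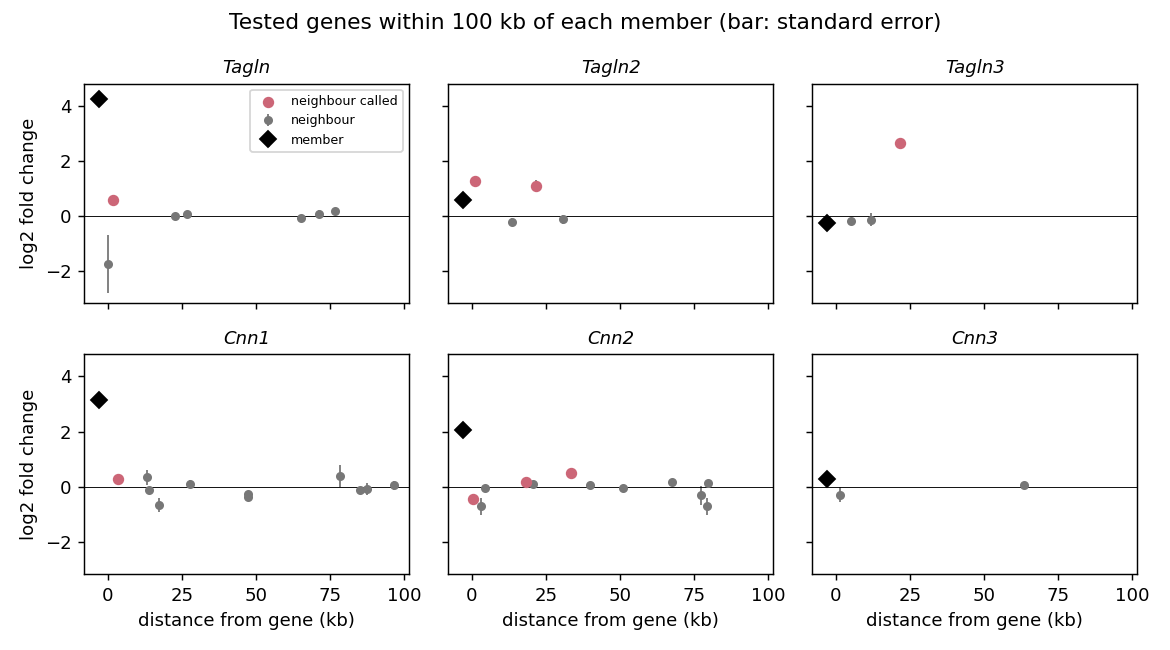
Log2 fold change with standard error against the distance in kilobases for each tested gene within 100 kb of a member, with called neighbours in red and the member itself as a black diamond left of the origin. Around Tagln, Cnn1 and Cnn2 the neighbours lie far below the member, whereas Phldb2 stands high beside Tagln3.

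Marker genes of other cell types were read beside these values. Over all tested genes, 13.6% were called higher and 11.7% lower. With few markers per set, counts near these shares are no result about a cell type. Of the smooth muscle markers, 3 of 5 tested were called higher (Lmod1, Smtn and Des, all 3 already counted in the contractile list above). The 7 summed to between 20.6 and 21.8 CPM in WT and between 28.6 and 32.5 CPM in Srrm2+/-. Most of that sum was Des (11.2 ± 0.175 and 14.1 ± 1.17 CPM) and Smtn (9.07 ± 0.522 and 13.9 ± 0.628 CPM), both already present in WT (SD, n = 3 each, WT first). The defining gene Myh11 stayed at or below 0.211 CPM and Actg2 at or below 0.188 CPM in every library. Fibroblast and mesenchyme markers summed to between 5.48 and 5.91 CPM in WT and between 11.2 and 14.4 CPM in Srrm2+/-. Of 8 tested, 5 were called higher (Col1a2, Col3a1, Prrx1, Col1a1 and Twist1). The other 3 were not called, with log2 fold changes of -0.70 (Thy1), -0.39 (Pdgfra) and 0.23 (Pdgfrb). Dcn, below the filter, was at 0 counts in every WT library and at or below 0.0578 CPM in Srrm2+/-. Col1a2 (0.197 ± 0.0792 CPM) and Prrx1 (0.210 ± 0.115 CPM) were near the floor in WT (SD, n = 3). Both passed the filter through Srrm2+/-. Mesoderm markers summed to between 1.61 and 2.25 CPM in WT and between 5.14 and 5.77 CPM in Srrm2+/-, with 2 of 4 called higher (T and Kdr). Kdr was at 0.102 ± 0.0557 and 1.05 ± 0.0646 CPM (SD, n = 3 each, WT first). It passed the filter only through Srrm2+/-, so its call adds little to that count. Striated muscle markers summed to between 78.4 and 85.9 CPM in WT and between 65.0 and 77.8 CPM in Srrm2+/-, with Myod1 at 0 counts in every library. Most of that sum was Ttn (79.9 ± 3.74 and 70.01 ± 6.56 CPM, not called), while Myh7, the 1 of 3 tested that was called higher, was at 0.294 ± 0.0778 and 0.936 ± 0.0760 CPM (SD, n = 3 each, WT first). Primitive endoderm markers summed to between 1.90 and 2.46 CPM and between 2.38 and 3.38 CPM (1 of 4 called higher). Trophoblast markers summed to between 52.0 and 52.9 CPM and between 32.3 and 35.3 CPM, with 1 of 4 called higher (Eomes) and 1 lower (Tfap2c). Most of that sum was Tfap2c (50.6 ± 0.442 and 30.8 ± 1.78 CPM), so it says little about the other trophoblast markers. Eomes was at 0.567 ± 0.114 and 0.987 ± 0.150 CPM (SD, n = 3 each, WT first). Cdx2, below the filter, was at 0 CPM in every WT library and at or below 0.276 CPM in Srrm2+/-. The part of such cells in the values of the members was not tested.

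Neural markers, read beside Tagln3, summed to between 270 and 290 CPM in WT and between 242 and 255 CPM in Srrm2+/-, with 1 of 9 tested called higher (Snap25) and 2 lower (Tubb3 and Pax6). Most of that sum was Stmn2, with averages of 179 ± 10.3 CPM over the WT libraries and 174 ± 4.25 CPM over the mutant ones (SD, n = 3), while Dcx was at or below 0.180 CPM in every library. The shares over all tested genes were 13.6% higher and 11.7% lower. Pluripotent markers stayed abundant, at 5098 to 5282 CPM summed in WT and 4421 to 4542 CPM in Srrm2+/-, with 6 of 8 called lower.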

How the data were processed

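Total RNA libraries (TruSeq Stranded) were sequenced paired-end. The authors pseudo-aligned reads with Kallisto 0.46.1 to the GENCODE M24 mouse transcriptome (mm10) and deposited gene-level estimated counts without normalization. Estimated counts were rounded. Symbols and positions came from GENCODE M21 on the same build (42156 of 42450 identifiers matched) and promoters from RefSeq (GRCm38.p6).

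Genes past filterByExpr (minimum count 10, minimum total 15) were fitted with edgeR 4.0.16 (TMM, glmQLFit, glmQLFTest, two-sided, genotype as the sole term, all 6 libraries). P-values were adjusted by Benjamini-Hochberg over 18905 genes and called under 0.05. The standard error was the log2 fold change divided by the root of F. CPM used TMM-scaled library sizes. Log2 CPM used a prior count of 2. The scripts were tested on simulated data.

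The members and lists were chosen with earlier results of these data known. Named genes were the members, Srrm2, per list the 3 largest called rises, 2 largest called falls and genes of at least 100 CPM on average, called neighbours, and the 3 closest profiles of each member that differed by at least 1 on the log2 scale in either direction. Other regulators and list genes were named after their values were seen. No list was tested as a set. A gene that this rule names is not reported here. Replicates sharing a number showed no common deviation from their group means (r of -0.03 for each number). Alternatives were RLE and upper quartile scaling, DESeq2 1.42.0, limma voom 3.58.1, 2 other filters, the replicate block, each library left out, and a fit lacking mitochondrial, rRNA and short RNA genes.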

Additional observations from a re-analysis of the deposited data

How the results depend on the processing

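The log2 fold changes of all 6 members moved by less than their spread between replicates under each of the 14 alternatives. With 1 library left out, Tagln ranged from 4.03 to 4.48, Tagln2 from 0.49 to 0.62, Tagln3 from -0.29 to -0.21, Cnn1 from 3.05 to 3.22, Cnn2 from 1.98 to 2.09 and Cnn3 from 0.24 to 0.29. The median log2 fold change of all tested genes stayed between -0.00398 and 0.0104. The counts of called genes in the whole table and in the 3 lists stayed within 1.5 times. Lower calls among neighbours were 2 with limma voom and 1 to 3 with a library left out (3 without WT replicate 1, 2 without Srrm2+/- replicate 1 or 3). Macf1, which was not called, ranged from -0.0827 to 0.00759 with a library left out and changed sign in the fit that lacked Srrm2+/- replicate 1, for which the cause was not tested. Replicate numbers share only a number; with the replicate block 4166 genes were called against 4781, and Tagln was at 4.27. The strand setting of the counting and the low counts of Cnn1 in WT limit the precision.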
